A study of Homo sapiens with 47 samples.

Results

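U3, U8 and U13 are small nucleolar RNAs (snoRNAs) of the box C/D family that are made from genes of their own rather than cut out of the introns of other genes. Their genes were taken by symbol: SNORD3A, SNORD3B-1, SNORD3B-2, SNORD3C and SNORD3D for U3, SNORD118 for U8 and SNORD13 for U13, which is 7 of the 58395 genes counted. The series examined what happens to RNA polymerase II (Pol II) genes without poly(A) tails when the elongation factor EAF1 can no longer dock on Mediator. Total RNA freed of ribosomal RNA had been sequenced from wild-type HEK293T cells, a human embryonic kidney line, and from an EAF1-mutant line derived from them, with 3 libraries each. In the mutant line, residues in the C-terminal region of EAF1 were exchanged for alanines on both alleles by CRISPR knock-in. It is 1 clonal line, so the mutation and anything else particular to that clone cannot be told apart.

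Box C/D snoRNAs carry the short sequence elements box C and box D, on which a common set of proteins assembles. Most guide 2′-O-methylation of other RNAs and lie in introns. U3 instead base-pairs with the ribosomal RNA precursor and is the RNA core of the small subunit processome, which cuts out 18S rRNA. U8 is needed for maturation of 5.8S and 28S rRNA, and U13 pairs with the 3′ end of 18S rRNA, where it helps NAT10 acetylate a base. The genes of U3, U8 and U13 have promoters like those of the spliceosomal small nuclear RNA (snRNA) genes, with a distal element bound by the octamer factor POU2F1 and a proximal element bound by the SNAPc complex. EAF1 belongs to the little elongation complex, which acts at snRNA genes.

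The sequence of SNORD3A is given because the other U3 genes are near copies of it. The RNA spans chr17:19188016-19188232 on the plus strand of GRCh38, and in the line below the capitals mark the letters TGATGA of a box C core, which begin at base 158, and the last CTGA, the letters of box D, which begin at base 209.
SNORD3A: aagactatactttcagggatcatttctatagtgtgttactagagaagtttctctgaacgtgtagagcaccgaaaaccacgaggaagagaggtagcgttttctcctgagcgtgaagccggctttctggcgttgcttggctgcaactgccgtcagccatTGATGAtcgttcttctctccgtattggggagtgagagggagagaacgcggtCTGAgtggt
Over these 217 bases SNORD3B-1 and SNORD3B-2 were identical to each other and differed from SNORD3A by A78C. SNORD3C differed from it by G108A, and SNORD3D by A4G, C53T and A78C, with positions counted from 1 at the 5′ end and the base of SNORD3A given first. So few differences mean that many reads fit several copies, and a read was not necessarily counted at the gene it came from. The U8 RNA is shorter, 134 bases, and is annotated inside the 3′ exon of TMEM107 on the same strand. Its last 30 bases (chr17:8173454-8173483, minus strand) are shown with the CTGA of box D in capitals.
SNORD118: cttgcaacaccctgattgctcctgtCTGAt

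The promoters are as alike as the RNAs. The 250 bases before the RNA were identical in SNORD3A and SNORD3C, and identical in SNORD3B-1 and SNORD3B-2, which matched SNORD3A at 247 bases, while SNORD3D matched it at 249. The window of SNORD3A (chr17:19187766-19188015, plus strand) is shown, with the octamer-like letters ATGCNAAT in capitals, followed by the window of an outlying U3 copy described later (chr17:58631837-58632086, minus strand), chosen after its values were seen.
SNORD3A promoter: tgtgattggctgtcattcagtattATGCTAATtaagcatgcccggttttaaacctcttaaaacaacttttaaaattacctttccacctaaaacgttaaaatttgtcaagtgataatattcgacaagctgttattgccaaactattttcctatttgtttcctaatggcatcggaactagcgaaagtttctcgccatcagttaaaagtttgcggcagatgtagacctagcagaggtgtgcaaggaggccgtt
U3 copy promoter: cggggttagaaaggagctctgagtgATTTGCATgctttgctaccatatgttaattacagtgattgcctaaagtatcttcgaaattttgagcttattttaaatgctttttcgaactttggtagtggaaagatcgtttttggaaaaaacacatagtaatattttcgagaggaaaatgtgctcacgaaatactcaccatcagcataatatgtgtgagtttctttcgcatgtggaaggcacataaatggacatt
ATGCNAAT, read on both strands, was found in 6 of the 7 members' windows, all but that of SNORD118, and in 2.69% of 35116 human promoter windows of the same length from RefSeq (GRCh38.p14). It began 226 bases before the RNA in each U3 gene and 225 bases before it in the outlying copy. The stricter octamer ATGCAAAT, which is one of the sequences ATGCNAAT covers, was found in 1 of the 7 members' windows and in 1.63% of all windows. TATAAA was found in 1 of the 7 and in 10.7% of all windows. These matches describe the letters and are not measured binding sites.

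The wild-type libraries held 59137210, 52541541 and 55637032 counts in replicates 1, 2 and 3, against 57198018, 53369621 and 66611451 in the mutant ones. Levels are in CPM, the counts of a gene scaled to a fixed library total, after edgeR's TMM scaling, which corrects for library size and composition. EAF1 itself had 57.4 ± 0.950 CPM (SD, n = 3) in wild-type and 18.8 ± 0.883 CPM (SD, n = 3) in mutant cells, a log2 fold change of -1.61 (SE 0.05, edgeR adjusted p = 2.46e-18). A point mutation leaves the transcript countable, so this does not check the labels. The 32 other tested genes within 1 Mb of EAF1 had a median log2 fold change of -0.70. Of 6 markers of HEK293T cells (PAX2, LHX1, EYA1, VIM, NEFM and NEFL), 5 reached 1 CPM, and their summed level ran from 496 to 524 CPM in wild-type and from 281 to 290 CPM in mutant libraries, mostly VIM, with 380 against 199 CPM. VIM (log2 fold change -0.93) and NEFM (-1.31) were called lower, while LHX1 (-0.17), EYA1 (-0.14), NEFL (-0.15) and PAX2 (0.33) did not pass the thresholds. The summed level of 5 markers of other cell types ran from 2.37 to 3.51 CPM in wild-type and from 4.09 to 4.51 CPM in mutant libraries. COL1A1, the most abundant, had 2.85 and 4.15 CPM in the 2 groups and was called higher (log2 fold change 0.54, SE 0.12, edgeR adjusted p = 0.000566), PTPRC and ALB had 0.0187 and 0.0444 CPM in wild-type and 0.0261 and 0.144 CPM in mutant cells, and KRT5 and HBB had 0 counts in every wild-type library and at most 2 in a mutant one. The part of these differences in the results below was not tested. Fewer cells making an RNA and less of it per cell cannot be told apart in bulk RNA.

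U3, U8 and U13 all fell in EAF1-mutant cells. Summed over its 5 genes, U3 RNA fell by 35.6%, U8 by 37.3% and U13 by 60.5%. The U8 value rests on counts that may include reads of TMEM107, which holds U8 in an exon. All 7 members were called lower by edgeR's quasi-likelihood test, run on 28025 genes. A call needed an adjusted p below 0.01 together with a change of more than 0.5 on the log2 scale. Of all tested genes, 20.3% passed these thresholds, 9.36% as lower and 11.0% as higher. With the 5 U3 genes replaced by their sum, 9.36% of 28021 rows again passed as lower. At an adjusted p under 0.05 with no limit on size, where all 7 members passed too, 51.5% of all tested genes did. For each of the 7, all mutant libraries lay below all wild-type ones, which was also so for 28.1% of all tested genes, so lack of overlap is common in this comparison. The 7 are not 7 independent observations, since the 5 U3 genes may share reads.

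**Figure D1:**
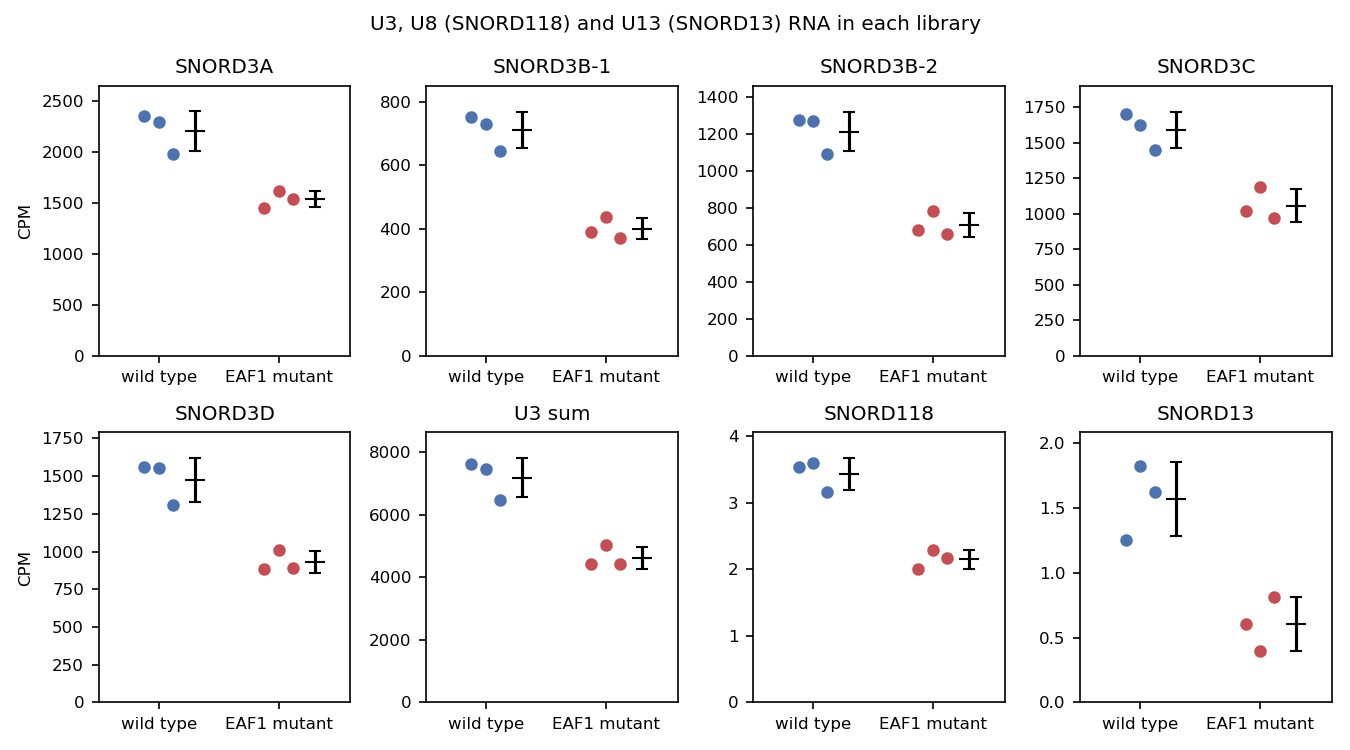
CPM of each U3 gene, of their sum, of U8 (SNORD118) and of U13 (SNORD13) in the 3 wild-type (blue) and 3 EAF1-mutant (red) libraries, with the group mean and SD in black. In every panel the mutant points lie below the wild-type points, for the U3 sum at 4430 to 5037 against 6474 to 7634 CPM. The same order of groups was found for 28.1% of all tested genes.

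U3 was by far the most counted of the 3 RNAs. The summed U3 counts were 432057, 378004 and 346754 in wild-type replicates 1, 2 and 3, and 264013, 280309 and 306476 in the mutant ones. In CPM these were 7634, 7473 and 6474 in wild-type cells and 4430, 5037 and 4434 in mutant cells. Every mutant library lay below every wild-type library, and the third wild-type library was the lowest of its group. The means were 7193 ± 628 CPM (SD, n = 3) and 4634 ± 350 CPM (SD, n = 3), and the log2 fold change was -0.63 (SE 0.05, edgeR adjusted p = 3.05e-10). Leaving out any 1 library kept this value between -0.72 and -0.60. U3 made up 0.691% ± 0.0590 (SD, n = 3) of all counts in wild-type cells and 0.482% ± 0.0372 (SD, n = 3) in mutant cells. Whether a read that fits several copies was counted at each of them, at 1 or at none is not given in the sources used here, and the sum shares that uncertainty.

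The 5 U3 genes lie within 128.3 kb of chromosome 17, and their log2 fold changes ran from -0.83 to -0.52. SNORD3B-1 (chr17:19061912-19062669, plus strand) had 753, 732 and 645 CPM in wild-type and 391, 436 and 372 CPM in mutant libraries, a log2 fold change of -0.83 (SE 0.05, edgeR adjusted p = 5.01e-12). SNORD3B-2 (chr17:19063346-19064136, minus strand), whose RNA is the same, had 1275, 1274 and 1092 CPM against 683, 784 and 661 CPM, a log2 fold change of -0.78 (SE 0.06, edgeR adjusted p = 4.39e-11). For both genes of this pair every mutant library lay below every wild-type library. SNORD3D (chr17:19112420-19112636, minus strand) had 1560, 1555 and 1307 CPM against 884, 1013 and 892 CPM, a log2 fold change of -0.66 (SE 0.06, edgeR adjusted p = 5.73e-10). Its mutant libraries again lay below its wild-type ones. The annotation has 2 overlapping SNORD3D genes that differ by 1 base and share their reads, of which 1 was used.

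SNORD3C and SNORD3A, the pair at the far end of the cluster, had the smallest changes. SNORD3C (chr17:19189665-19190245, minus strand) had 1697, 1624 and 1447 CPM in wild-type and 1017, 1186 and 966 CPM in mutant libraries, a log2 fold change of -0.59 (SE 0.06, edgeR adjusted p = 8.96e-09). SNORD3A (chr17:19188016-19188714, plus strand), the most counted copy, had 2348, 2289 and 1982 CPM against 1455, 1618 and 1543 CPM, a log2 fold change of -0.52 (SE 0.05, edgeR adjusted p = 4.81e-09). In both genes the mutant libraries again lay below the wild-type ones. These 2 calls sat close to the limit on size: with library totals in place of TMM the log2 fold changes were -0.40 for SNORD3A and -0.47 for SNORD3C, upper quartile factors gave -0.47 for SNORD3A, and without the first wild-type or the first mutant library that of SNORD3A was -0.49 or -0.48, all just short of it. Per kilobase of the 217-base RNA, the wild-type levels ran from 3273 CPM for SNORD3B-1 over 5593 for SNORD3B-2, 6793 for SNORD3D and 7331 for SNORD3C to 10170 for SNORD3A. SNORD3B-1 and SNORD3B-2 have the same RNA and yet different counts, and the counts of SNORD3A, SNORD3B-1, SNORD3B-2 and SNORD3C were made over annotated genes of 581 to 791 bases. Per kilobase of annotated gene the order was another, from 937 CPM for SNORD3B-1 over 1534 for SNORD3B-2, 2736 for SNORD3C and 3157 for SNORD3A to 6792 for SNORD3D. The order therefore depends on the length used, and it may reflect where reads were placed as well as which gene made them.

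The split of U3 counts over the copies was compared between the genotypes as well. The 5 shares are parts of the same total, so a rise at one copy goes with falls at others and the tests are not independent. Where reads that fit several copies were placed may also affect the split. SNORD3A took 30.8%, 30.6% and 30.6% of the summed U3 counts in the wild-type libraries and 32.9%, 32.1% and 34.8% in the mutant ones. SNORD3B-1 took 9.86%, 9.79% and 9.97% against 8.83%, 8.66% and 8.40%, and SNORD3B-2 took 16.9% ± 0.170 against 15.3% ± 0.341 (SD, n = 3). The groups did not overlap for these 3 copies or for SNORD3D, whose share was 20.5% ± 0.313 against 20.1% ± 0.0940 (SD, n = 3). They did for SNORD3C, at 22.1% ± 0.335 against 22.8% ± 0.894 (SD, n = 3). The two-sided exact permutation test gave p = 0.1, the smallest that 3 against 3 libraries allow, for the 4 copies that did not overlap and p = 0.3 for SNORD3C, or 0.125 and 0.3 after Benjamini-Hochberg adjustment over the 5. The largest of these shifts, that of SNORD3A, was 2.58 percentage points. That of SNORD3D, -0.416 points, was -0.250 without the second wild-type library, and that of SNORD3C, 0.655 points, was 0.263 without the second and 1.14 without the third mutant library.

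**Figure D2:**
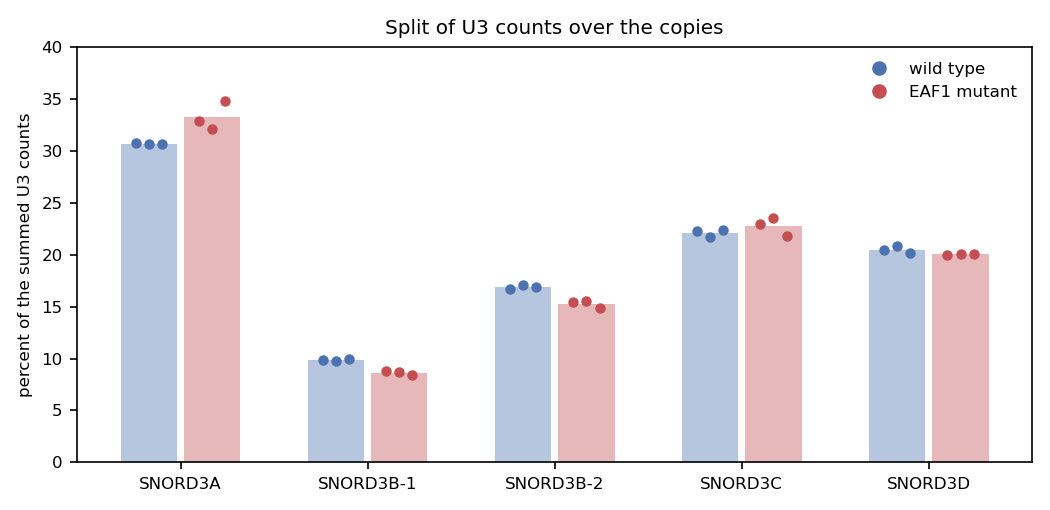
Percent of the summed U3 counts that fell on each of the 5 U3 genes, with points for the 3 wild-type (blue) and 3 EAF1-mutant (red) libraries and bars for the group means. The mean share of SNORD3A was 30.7% in wild-type and 33.3% in mutant libraries, and the groups overlap for SNORD3C.

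U8, from SNORD118 (chr17:8173454-8173587, minus strand, 10.89 Mb from the U3 cluster), was far less counted. Its libraries held 200, 182 and 169 counts in wild-type and 119, 127 and 150 in mutant cells, which is 3.53, 3.60 and 3.16 CPM against 2.00, 2.28 and 2.17 CPM. The groups did not overlap, and their spread (a coefficient of variation of 6.98% and 6.70%) was no wider than counting error alone, which is 7.07% for 200 counts and 9.17% for 119. The log2 fold change was -0.67 (SE 0.12, edgeR adjusted p = 3.14e-05), close to that of U3, and it ran from -0.75 to -0.56 over the other settings tried. How many of the SNORD118 counts came from TMEM107 transcripts over the same bases was not tested, and ratios to U8 share that limit.

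U13, from SNORD13 (chr8:33513475-33513578, plus strand), was the least counted. It had 71, 92 and 87 counts in wild-type and 36, 22 and 56 in mutant libraries, or 1.25, 1.82 and 1.62 CPM against 0.604, 0.395 and 0.810 CPM. Every mutant value lay below every wild-type value, and the mutant libraries differed widely among themselves. The 22 counts of the second mutant library have a 95% Poisson interval of 13.8 to 33.3, and the 56 of the third one of 42.3 to 72.7. These intervals cover counting error only and are of raw counts. The third library held 66611451 counts in all, against 53369621 in the second, so part of the gap is depth. The log2 fold change of -1.34 (SE 0.21, edgeR adjusted p = 1.07e-05) was -1.13 without that second mutant library and -1.63 without the third. Only 7 other genes were tested within 1 Mb, with a median log2 fold change of -0.34, 1 of them lower and 2 higher past the thresholds. Of its nearest tested protein-coding neighbors, TTI2, a partner of PI3K-like kinases, had a log2 fold change of -0.34 and did not pass the limit on size, and RNF122, a ubiquitin ligase, rose by 0.56 (SE 0.09, edgeR adjusted p = 1.86e-05).

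Set side by side per length, the wild-type level was 33150 CPM per kilobase for the U3 sum, taking the 217 bases of the RNA as its length, 25.6 for U8 and 15.1 for U13. U3 thus stood 1295 times above U8, and U8 1.70 times above U13. The first ratio depends on how reads that fit several U3 copies were counted, which is not given. It also rests on 217 bases as the length, while most of the U3 genes are annotated as longer. RNAs this short can be lost when a library is made from fragments, and how well each was recovered was not tested. Within each library the log2 ratio of U3 to U8 was 11.08, 11.02 and 11.00 in wild-type and 11.12, 11.11 and 11.00 in mutant cells, and the groups overlapped, with a difference of 0.04 (two-sided exact permutation p = 0.4, n = 3 each). The log2 ratio of U3 to U13 was 12.18 ± 0.340 in wild-type and 12.97 ± 0.619 in mutant cells (SD, n = 3), and that of U8 to U13 was 1.15 ± 0.302 against 1.89 ± 0.573 (SD, n = 3). Both were higher in the mutant mean, by 0.79 and 0.75 (0.45 and 0.43 without the second mutant library), but the groups overlapped (exact permutation p = 0.2 for each, 0.3 after adjustment over the 3 ratios). The larger fall of U13 was therefore not separated from that of U3 or U8 by this test, whose smallest p is 0.1.

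Counts on the gene that holds U8 were compared with those on U8 itself. TMEM107, which codes for a membrane protein of the ciliary transition zone and holds SNORD118 in its last exon, had 868, 799 and 828 counts in wild-type and 1072, 974 and 1245 in mutant libraries, a log2 fold change of 0.20 (SE 0.05, edgeR adjusted p = 0.00221) that is under the limit on size. The log2 ratio of SNORD118 to TMEM107 was -2.12, -2.13 and -2.29 in wild-type and -3.17, -2.94 and -3.05 in mutant cells and the groups did not overlap. The difference was -0.87 (two-sided exact permutation p = 0.1, the smallest possible, n = 3 each). At the SNORD3D locus, reads over overlapping genes were counted for each of them. There the 2 annotated SNORD3D genes had 88288 and 88290 counts in the first wild-type library, and the longer transcript around them had 89288. Reads over U8 may have been counted for TMEM107 in the same way, which was not tested on its own. Among 176 small RNA genes inside an exon of another gene on the same strand, the outer gene had at least the count of the inner one in every library in 98.9%. A longer outer gene can hold more counts in either case, so this share alone does not decide how reads over U8 were counted. Taking the SNORD118 counts away from those of TMEM107, a measure chosen after the values were seen, left 668, 617 and 659 counts in wild-type and 953, 847 and 1095 in mutant cells. These are 12.1 ± 0.264 against 15.7 ± 0.408 CPM (SD, n = 3), 1.30 times as much in the mutant. In all 3 mutant libraries TMEM107 was higher and SNORD118 lower in CPM. A higher remainder had to follow from these values, so no p-value is given for it. If reads over U8 were counted for both genes, the remainder stands for the rest of TMEM107. The exon around U8 was not counted on its own.

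At the SNORD3D gene a longer noncoding transcript (ENSG00000262202, chr17:19112000-19112636, minus strand) is annotated from the same 5′ end and runs 419 bases past the longer of the 2 annotated SNORD3D genes (218 bases). The counts of this longer SNORD3D gene were subtracted from those of the transcript, also a measure chosen after the values were seen. The counts of the overlapping genes here are nearly equal, as given above, so fragments over both were counted for both. The remainder therefore stands for the downstream flank. The remainder was 998, 836 and 823 in wild-type and 305, 326 and 380 in mutant libraries, or 17.6, 16.5 and 15.4 CPM against 5.12, 5.86 and 5.50 CPM. The mutant level was 0.333 of the wild-type one, with no overlap (n = 3 each). The log2 ratio of the remainder to the longer SNORD3D gene was -6.48 ± 0.0734 in wild-type and -7.40 ± 0.0527 in mutant cells (SD, n = 3). Because the measure was chosen after its values were seen, no p-value is given for either. The remainder is a small difference between 2 large counts. Which U3 copy these counts came from was not tested.

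**Figure D3:**
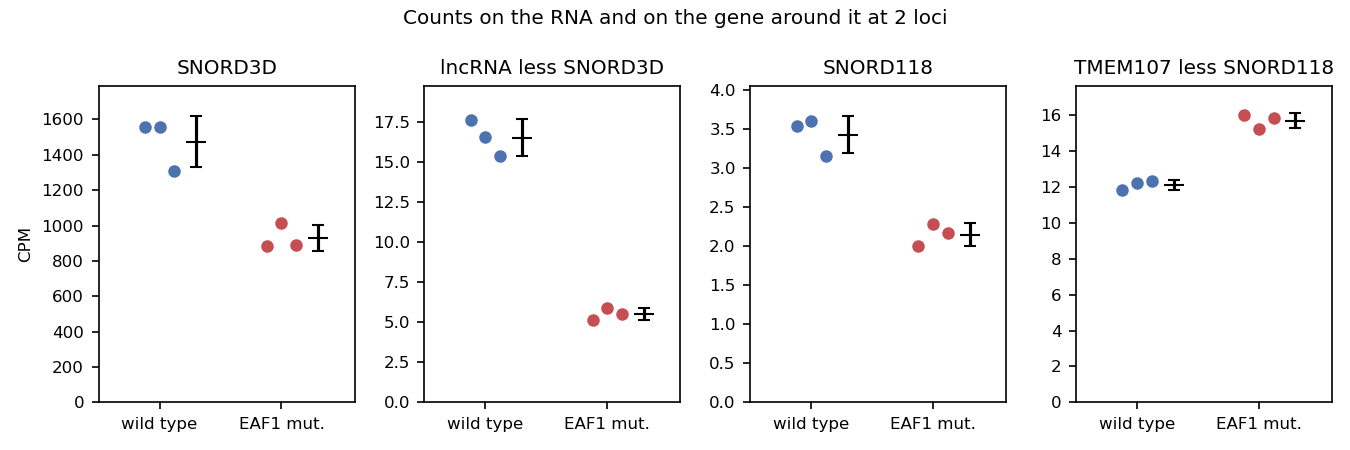
CPM in the 3 wild-type (blue) and 3 EAF1-mutant (red) libraries, with group mean and SD in black, of SNORD3D, of the longer noncoding transcript less the longer SNORD3D gene, of SNORD118, and of TMEM107 counts less those of SNORD118. The means of the noncoding remainder are 16.5 and 5.49 CPM, and those of the TMEM107 remainder 12.1 and 15.7 CPM.

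Other genes around the U3 and U8 loci were not lower as a group. Within 1 Mb of the U3 cluster, 69 other genes were tested, with a median log2 fold change of 0.18, 11 of them higher and 3 lower past the thresholds. Within 1 Mb of SNORD118, 103 were tested, with a median of 0.15, 8 higher and none lower. The median over all 1731 tested genes of chromosome 17 was 0.08. Of all tested genes, 11.0% passed as higher and 9.36% as lower. The nearest tested protein-coding genes of the U3 loci were GRAP, GRAPL and EPN2. GRAPL, a relative of the adaptor gene GRAP, rose from 20, 13 and 9 counts to 38, 41 and 77, with a log2 fold change of 1.68 (SE 0.29, edgeR adjusted p = 3.76e-05). GRAP had 6, 3 and 2 counts in wild-type and 11, 12 and 19 in mutant libraries and was called higher as well (1.70, SE 0.47, edgeR adjusted p = 0.00409). EPN2, an endocytic adaptor, had a log2 fold change of -0.19. On either side of SNORD118 and TMEM107, VAMP2, a vesicle fusion protein, had a log2 fold change of -0.34, and BORCS6, of the lysosome-moving BORC complex, one of 0.29, neither past the limit on size.

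Besides the members, 81 genes carry the name of a U3, U8 or U13 copy, and 36 of these had no count in any library. Of the 11 that could be tested, 3 were lower past the thresholds and none higher, with a median log2 fold change of -0.70. The lower ones were 27.3% of the 11, against 9.36% of all tested genes. The best counted was a U3 copy in an intron of TEX14 (ENSG00000212195, chr17:58631641-58631836, minus strand, 196 bases), whose promoter window is printed above. It had 140, 163 and 134 counts in wild-type and 62, 40 and 58 in mutant libraries, without overlap, and a log2 fold change of -1.65 (SE 0.16, edgeR adjusted p = 7.12e-09). TEX14 itself, a gene of germ cell bridges on the same strand, rose from 1.78 ± 0.111 to 4.14 ± 0.271 CPM (SD, n = 3), a log2 fold change of 1.22 (SE 0.11, edgeR adjusted p = 3.72e-09). The copy amounted to 0.0381% of the U3 sum in wild-type cells. SNORD3E on the X chromosome, with 35, 27 and 23 against 21, 16 and 14 counts, and 1 U8 copy on chromosome 15, with 29, 25 and 16 against 15, 10 and 14, were the others that passed as lower. With DESeq2 1 of the 11 passed as lower, and with library totals alone 1 passed as lower and 1 as higher.

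The intronic box C/D snoRNAs had a smaller median change than the members. This class was taken by symbol, and the place of each gene in an intron was not checked. Its counts may include reads of the transcripts around each snoRNA, which was not tested. Of 138 tested intronic box C/D genes, 24 were lower and 4 higher past the thresholds, with a median log2 fold change of -0.19, against 0.01 for all tested genes and -0.67 for the 7 members. The lower ones were 17.4% and the higher ones 2.9% of the class, against 9.36% and 11.0% of all tested genes. With library totals alone the median was -0.07, and 18 were lower. Among those past the thresholds, SNORD18A and SNORD17 were furthest down (-0.95 and -0.94), and SNORD55 and SNORD125 furthest up (1.07 and 0.75). SNORD17 lies in a region of chromosome 20 where 30 other tested genes within 1 Mb had a median of -0.52. The log2 ratio of summed U3 counts to summed intronic box C/D counts was 3.64 ± 0.0858 in wild-type and 3.28 ± 0.108 in mutant cells (SD, n = 3), a difference of -0.36 without overlap (two-sided exact permutation p = 0.1, 0.1 after adjustment over 2 ratios). Of 131 tested box H/ACA snoRNA genes, which guide pseudouridylation, 14 were lower and 4 higher, with a median of -0.10, which was 0.02 with library totals alone. The lower ones were 10.7% of the class, near the 9.36% of all tested genes, and numbered 8 with library totals alone, and the higher ones numbered 2 with DESeq2. Among those past the thresholds, SNORA7A and SNORA6 were furthest down (-1.56 and -1.15), and SNORA25 and SNORA32 furthest up (0.85 and 0.73). The other tested genes within 1 Mb had a median of -1.75 around SNORA7A (22 genes) and of -0.69 around SNORA6 (24 genes).

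The Pol II snRNA genes, whose promoters are of the same class, had a median further down than that of the members. Of 33 tested, 21 were lower and none higher past the thresholds with edgeR and with DESeq2. The lower ones were 63.6% of the class, against 9.36% of all tested genes. Many of the 33 are genes of U1 or its variants, which may share reads, so they are not 33 independent observations. At an unadjusted p under 0.05, 33 were lower (of all tested genes, 27.8% were lower and 28.5% higher at that p). The median log2 fold change was -1.13. RNVU1-31, a variant U1 gene, went furthest down with 310, 274 and 247 counts in wild-type and 9, 11 and 2 in mutant cells (log2 fold change -5.41, SE 0.23, edgeR adjusted p = 4.30e-15), followed by RNVU1-15 (-1.99). The list held no tested U2 gene, since RNU2-1 had too few counts and RNU2-2P was left out with symbols that end in P. Genes of U1 and its variants held 98.6% of the counts of this class, and its 5 best-counted genes, with 93.4%, had a median of only -0.27. The choice of summary therefore decided the comparison. Against the summed snRNA counts the log2 ratio of U3 was 1.53 ± 0.0414 in wild-type and 1.17 ± 0.124 in mutant cells (SD, n = 3), a difference of -0.36 (exact permutation p = 0.1, n = 3 each), whereas against the median snRNA gene the difference was 0.92, the opposite direction.

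**Figure D4:**
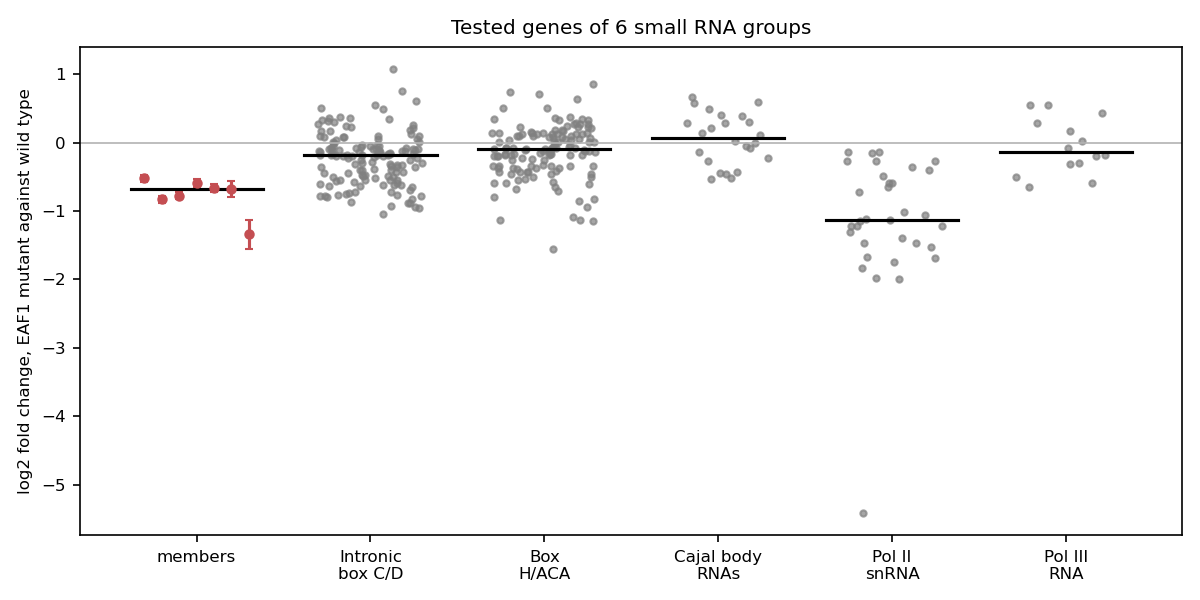
Log2 fold change, EAF1 mutant against wild type, of the 7 members (red, with SE) and of each tested gene of 5 other small RNA classes (grey), with black lines at the medians. The members' median is -0.67, that of intronic box C/D genes -0.19 and that of Pol II snRNA genes -1.13.

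RNA polymerase III (Pol III) transcripts and scaRNAs, the guide RNAs of Cajal bodies, were the remaining small RNAs compared. Of 14 tested Pol III genes, 3 were lower and 2 higher, with a median of -0.13, or -0.02 with library totals alone. These were 21.4% lower and 14.3% higher, against 9.36% and 11.0% of all tested genes. RPPH1, the RNA of RNase P, and RNY1 were furthest down (-0.64 and -0.59), and RN7SK and RNU6-9 furthest up (0.55 and 0.55). With DESeq2, 1 was lower and 1 higher. Of 24 tested scaRNA genes, 2 were higher, SCARNA10 (0.66) and SCARNA9 (0.57), and none lower. The higher ones were 8.33% of the class, near the 11.0% of all tested genes. None of the 3 other noncoding RNAs compared that have Pol II promoters of their own passed the thresholds with edgeR or DESeq2. At an unadjusted p under 0.05 there were 1 higher and 2 lower. The log2 fold changes were -0.40 for TERC, the telomerase RNA, -0.14 for SCARNA2 and 0.29 for SCARNA17.

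Protein genes that work with these RNAs were mostly below 0, and few passed the limit on size. All 4 core proteins of box C/D particles were below 0, with a median log2 fold change of -0.33 (-0.21 with library totals alone), and 1 passed the thresholds: NOP56 fell by 0.69 on the log2 scale (SE 0.03, edgeR adjusted p = 7.19e-14). The methyltransferase FBL was at -0.35, NOP58 at -0.31 and SNU13 at -0.18. Of the 4 proteins that bind U3 in particular, with a median of -0.52, RRP9 fell by 1.14 (SE 0.05, edgeR adjusted p = 8.59e-15) and IMP3 by 0.63 (SE 0.04, edgeR adjusted p = 1.36e-11), while IMP4 and MPHOSPH10 were at -0.41 and -0.32. Of 41 genes of the small subunit processome, 39 were below 0, against 48.7% of all tested genes, with a median of -0.22, and 7 were lower and none higher past the thresholds, HEATR1 (-0.82) and WDR3 (-0.77) furthest. The lower ones were 17.1% of the 41, against 9.36% of all tested genes. With library totals alone the processome median was -0.10, and 3 passed as lower. Several of these lie where other genes were lower as well. The 62 other tested genes within 1 Mb of RRP9 had a median of -0.82, the 34 around NOP56 one of -0.56 and the 55 around IMP3 one of -0.34. What part the regions had in these values was not tested.

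All 7 protein genes linked to U8 and U13, among them the U8 decapping enzyme NUDT16 (-0.25) and the acetyltransferase NAT10 (-0.43), were below 0 with a median of -0.25. With edgeR and with DESeq2 none passed the limit on size, while all 7 were lower at an unadjusted p under 0.05, as were 27.8% of all tested genes. With library totals alone the median was -0.14. Of 10 genes for assembly of box C/D particles, 1 was lower, ZNHIT6 (-0.65), and the median was 0.07 (0.19 with library totals alone). Of 23 genes for capping, export and 3′ trimming of the precursors, 1 was lower, LSM3 (-1.58), in a region where the 20 other tested genes had a median of -1.65, and the median of the 23 was -0.11 (0.00 with library totals alone). The 13 genes for snRNA-type promoter factors had a median of 0.05, with SNAPC4, the largest subunit of SNAPc, higher (0.65, SE 0.04, edgeR adjusted p = 9.11e-12) and none lower. With library totals alone the median was 0.16, and 2 were higher. POU2F1 was at -0.32. Of 21 genes of the little elongation complex, Integrator and the Mediator subunit MED26, EAF1 itself was lower (-1.61) and EAF2, its paralog, higher (0.97), and the median was -0.10, or 0.02 with library totals alone.

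Across the 6 libraries, the U3 sum and SNORD118 followed each other closely (Pearson r of log2 CPM 0.99), and SNORD13 less so (0.79 with U3 and 0.85 with SNORD118). In a search of 19216 tested genes that averaged 1 CPM or more, those most like the U3 sum were ZNF280D, PROSER2 and ENSG00000276256, each with r of at least 0.99, leaving out genes that share reads with U3. Their log2 fold changes were -0.13, -0.28 and -0.32, none past the limit on size. Those most like SNORD118 were ENSG00000231794, NFIA-AS1 and PFN1P2, and those most like SNORD13 were TIMM10B, HSPE1P2 and FAM13A-AS1. With 6 libraries in 2 groups, many genes that differ between the groups give such values, and they are descriptions without a test.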

How the data were processed

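Stranded libraries of rRNA-depleted RNA, read as 100 bp pairs, were used for 3 wild-type and 3 EAF1-mutant libraries, grouped by their labels. The authors trimmed reads (Trim Galore in the study's methods, Trimmomatic 0.38 in the submitters' processing notes), aligned them to GRCh38 (HISAT2), and deposited a table of raw gene counts made with Rsubread and the Ensembl annotation. How strand, overlapping genes and multiply mapped reads were handled is not stated in those sources, so genes with near-identical copies or nested neighbors are uncertain. The other experiments of the series were not used here.

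Of 58395 genes, 57754 matched the GENCODE 44 annotation of GRCh38, which gave symbols and positions. The 7 members match 8 rows; SNORD3D has 2 that share their reads, and the shorter was used. Sequences came from the GRCh38 reference. Genes kept by filterByExpr (28025) were scaled by TMM and tested by quasi-likelihood in edgeR 4.0.16 (R 4.3.3), and p-values were adjusted over all of them after Benjamini and Hochberg. Values of log2 CPM used 2 as prior count. Thresholds (0.01 for adjusted p, 0.5 for the size of the log2 change) were those of the study's methods, and the script was tested on simulated data. For the U3 sum the 5 rows were replaced by 1 and the table was fitted again. Ratios and shares were tested with the exact two-sided permutation test of scipy in Python, with smallest p 0.1. Library totals of 52541541 to 66611451 counts leave SNORD13 at 22 to 92 counts. The study's methods speak of biological replicates in general, and its reporting summary says that experiments of the kinds not exempted there, which include RNA-seq, were repeated. The cultures behind these libraries are not described, so p-values measure the spread between these libraries, part of which may be technical.

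The members and the lists of related genes were chosen with earlier results of these data known. Named genes were the members, their overlapping and nearest tested protein-coding genes, the 2 furthest down and 2 furthest up of each list past the thresholds, the 3 genes most like each RNA over the libraries, and EAF1; other members of a list are named to account for small lists. Alternatives were DESeq2 1.42.0, library totals, upper quartile factors, other filters, a replicate block, each library left out, looser thresholds, counts plus 1 and class medians.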

Additional observations from a re-analysis of the deposited data

How the results depend on the processing

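All 7 members were lower in every alternative fit, and none changed direction. DESeq2, both other filters and the looser threshold called all 7. Upper quartile factors called 6, leaving out SNORD3A, and library totals alone called 5, leaving out SNORD3A and SNORD3C. Library totals moved the median change over all 28025 genes from 0.01 to 0.13 on the log2 scale, and the calls from 3073 higher and 2624 lower to 4166 and 1844. Leaving out 1 library gave 6 or 7 calls. The U3 sum lay between -0.72 and -0.52 over 16 alternatives, with the largest edgeR or DESeq2 adjusted p at 6.29e-08. Among them were 3 chosen after seeing the data: both SNORD3D rows in the sum (-0.64), no second or longer row at that locus (-0.63), and totals without U3 (-0.65).

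The replicate numbers gave no clear pairing of the libraries: deviations from the group means correlated at 0.06, -0.18 and 0.21 for numbers 1, 2 and 3. Over all combinations of wild-type and mutant libraries the values ran from -0.356 to 0.229. With 3 libraries per group these values do not decide whether the libraries were paired. With the replicate number as a block, 7 members were called and the U3 sum was at -0.63. The ratio of U3 to the Pol II snRNA class changed direction, from -0.36 against summed counts to 0.92 against the median gene, where U1 genes hold 98.6% of the summed counts. The ratios among U3, U8 and U13 and that of SNORD118 to TMEM107 kept their direction with counts plus 1, and that of U3 to intronic box C/D genes with the class median. These 5 ratios also kept it without any 1 library, and no alternative was run for the measures chosen after the values were seen at the SNORD3D and TMEM107 genes. The difference in the ratio of U3 to U8 ranged from 0.02 to 0.08 without 1 library, that of U3 to U13 from 0.45 to 1.06 and that of U8 to U13 from 0.43 to 0.98, the lowest of the last 2 without mutant replicate 2. The shares of U3 counts kept their direction without any 1 library, with ranges of 1.82 to 3.15 percentage points for SNORD3A, -1.35 to -1.13 for SNORD3B-1, -1.71 to -1.39 for SNORD3B-2, 0.263 to 1.14 for SNORD3C and -0.561 to -0.250 for SNORD3D. Of 30 counts of list genes, 26 were within 1.5 times the reported one with DESeq2 and 22 with library totals. With DESeq2, Pol III genes had 1 higher and 1 lower in place of 2 and 3, copies 1 lower in place of 3, and box H/ACA genes 2 higher in place of 4. With library totals, lower genes numbered 3 in place of 7 in the processome, 8 in place of 14 among box H/ACA genes, 1 in place of 3 among Pol III genes and 1 in place of 3 among copies. Higher ones numbered 2 in place of 0 for capping, export and trimming, 2 in place of 1 for promoter factors, 2 in place of 1 for the elongation complex, Integrator and MED26, and 1 in place of 0 among copies. Library totals also moved the list medians of assembly genes from 0.07 to 0.19 and of promoter factors from 0.05 to 0.16. That of TERC, SCARNA2 and SCARNA17 moved from -0.14 to -0.03. Few counts limit SNORD13 most, with a counting error of 21.3% in its lowest library.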

Other observations

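Among the most abundant RNAs of the Pol III list, RN7SK, the RNA that holds the elongation kinase P-TEFb inactive, rose from 13860 ± 370 to 20270 ± 305 CPM (SD, n = 3). RN7SL1 and RN7SL2, the RNAs of the signal recognition particle, were at 21940 and 23890 CPM in wild-type and 17910 and 19280 CPM in mutant cells and did not pass the limit on size. RMRP, the RNA of RNase MRP, which also cuts the ribosomal RNA precursor, had a log2 fold change of 0.03 (SE 0.07, edgeR adjusted p = 0.775).

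Not every U3 copy outside the cluster had lower counts. A U3 copy on chromosome 14 had 25, 26 and 29 counts in wild-type and 41, 37 and 37 in mutant libraries, or 0.442, 0.514 and 0.541 CPM against 0.688, 0.665 and 0.535 CPM, where the groups overlapped, and it did not pass the test (log2 fold change 0.33, SE 0.23, edgeR adjusted p = 0.247). Another U3 copy, on chromosome 17, had 8, 6 and 3 counts against 11, 14 and 25 (log2 fold change 1.33, SE 0.43, edgeR adjusted p = 0.0121), which missed the threshold too. Both copies and the RNAs above were picked out after their values were seen.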
